A study of Mus musculus with 4 samples.

Results

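CD8 T cells that lack Foxo1 were set against wild-type CD8 T cells, and the comparison rests on 2 of the 4 arrays of a study of CD4 and CD8 T cells. The arrays were chosen by their labels: 1 array of CD8 T cells labelled Foxo1-deficient (Foxo1KO) and 1 array of CD8 T cells labelled wild-type. Spleen and lymph nodes, from mice 6 to 8 weeks old, were the source of both RNAs, which were read on Affymetrix arrays, and the series title gives target genes of Foxo1 in T cells as the question. The allele or Cre that removes Foxo1, the cells in which it is removed, how the T cells were purified and how many mice gave each RNA are not given in the sources used here. With 1 array per genotype there is no replicate, so no difference was tested and every value below is a description of these 2 RNAs. CD4 T cells of both genotypes, 1 array each, are used only to show where the CD8 values depart from theirs.

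Foxo1 is a forkhead transcription factor that enters the nucleus when signalling through phosphatidylinositol 3-kinase and Akt is low, and leaves it when Akt phosphorylates it. In T cells it is known for maintaining the naive state: it drives the interleukin-7 receptor alpha chain, which gives survival signals, and factors and receptors that send naive cells to lymph nodes. In CD8 T cells it is also known to hold back T-bet, the factor that drives the cytotoxic effector programme.

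The unit is the array's intensity for a probe set, a group of probes for 1 transcript. An intensity of 74.9, the median of all values, served as a floor: lower values were set to it, and a difference with 1 array below it is a lower bound, written as "at least". Of 45037 probe sets, 21234 lay below the floor in both CD8 arrays and 23803 were compared. Of these, 351 (1.47%) were at least 2-fold higher in Foxo1-deficient cells, and 485 (2.04%) were at least 2-fold lower. When each array was centred on its own median, which shifts all differences by 0.16 log2 units, the counts were 561 higher and 330 lower, so which direction held more probe sets depended on the scaling. The median intensity was 69.0 on the deficient array and 77.1 on the wild-type array. At least 4-fold differences were seen in 42 probe sets that were higher and 56 that were lower, and 8-fold differences in 14 and 12. The middle 90% of the differences lay between -0.71 and 0.63 log2 units.

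**Figure D1:**
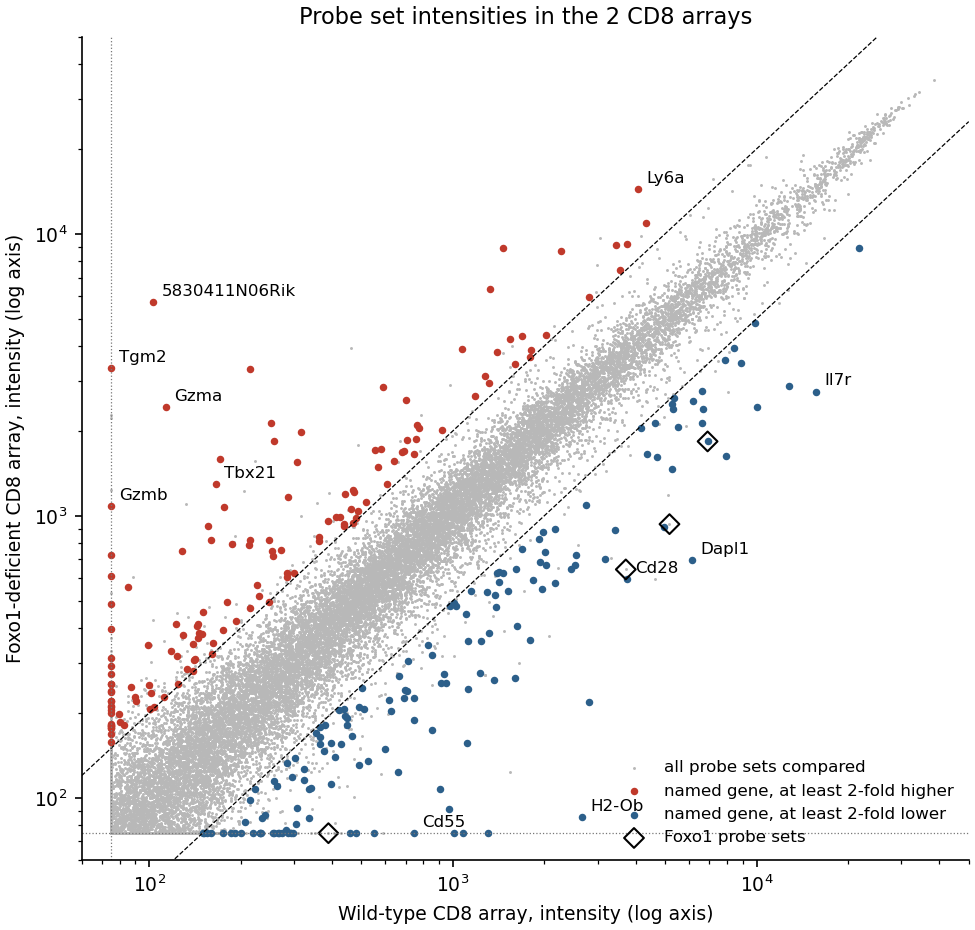
Intensity of each compared probe set in the Foxo1-deficient CD8 array (vertical log axis) against the wild-type CD8 array (horizontal log axis), with values below the floor of 74.9 (dotted lines) drawn at it and dashed lines at 2-fold. Coloured points are named genes at least 2-fold higher or lower, and open diamonds are the 4 Foxo1 probe sets, all below the lower dashed line.

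Gene names exist here only for probe sets that the authors put in their lists of changed probe sets. These name 507 genes, and 484 of them were compared in CD8 cells: 139 were at least 2-fold higher, 153 at least 2-fold lower, and the median difference was 0.16 log2 units. Because the authors chose these probe sets for a change in these same arrays, the direction of a named gene is not independent evidence, and the share of a list that differs cannot be read against the 1.47% and 2.04% of all probe sets. The counts of each list below stand instead beside the 139 higher and 153 lower of all 484 named genes compared. Of the 292 named genes past 2-fold, 265 were still past it in the same direction with centred arrays and 288 with quantile normalization. Each gene is given by its brightest named probe set. Named probe sets of the same gene differed with a pooled SD of 0.38 log2 units (76 genes). It is the only spread available, and it compares different probe sets rather than repeats of 1 measurement.

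Foxo1 itself was low in the deficient cells on all 4 of its probe sets. The brightest read 1836 in Foxo1-deficient and 6902 in wild-type cells, so 26.6% of the wild-type signal was left. The second read 934 against 5169 (18.1% left) and the third 645 against 3712 (17.4% left). The fourth read 45.1, below the floor, against 389 in wild-type cells, which leaves at most 19.2%. Over the 3 probe sets measured in both arrays the mean difference was -2.30 ± 0.34 log2 units (SD over probe sets, n = 3). The signal thus matched the genotype labels without being absent.

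Genes of the naive and quiescent state were mostly lower in the deficient cells. Of 34 genes on that list 16 had a name. Of the 16, 11 were at least 2-fold lower, none was 2-fold higher, and the median difference was -1.47 log2 units. With the mean over probe sets 1 was 2-fold higher and 11 lower, and with centred arrays 2 were higher and 10 lower. In these bulk RNAs, fewer cells of a type and less RNA per cell cannot be told apart, which holds for every value that follows. Il7r, the interleukin-7 receptor alpha chain, read 2755 in Foxo1-deficient and 15759.7 in wild-type cells, 5.72-fold lower. Its other probe set read 595 against 4639, 7.79-fold lower. Dapl1, a gene known as a marker of naive T cells, read 696 against 6124 and was 8.80-fold lower. Both chains of the interleukin-6 receptor were lower: Il6ra, the binding chain, read 362 against 1792 (4.96-fold lower), and Il6st, the signalling chain gp130, read 1654 against 4364 (2.64-fold lower).

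Other members of the list give a wider picture. Actn1, an alpha-actinin that links actin filaments to adhesion sites, read 2431 in deficient and 10007 in wild-type cells. Igfbp4, which binds insulin-like growth factors, read 3487 against 8919. Sesn1, a stress-induced inhibitor of mTORC1 signalling, read 3561 against 7897. All 3 were 2.22-fold to 4.12-fold lower. Of the 3 probe sets of Actn1, the least different gave only a bound, at least 0.59 log2 units lower. Cd55, a brake on complement, lay below the floor at 32.5 in deficient cells against 746 in wild-type cells, at least 9.96-fold lower. Ddr1, a collagen receptor, read 54.5 against 548, at least 7.32-fold lower, and the sialyltransferase St8sia6 read 44.1 against 219, at least 2.93-fold lower. The members that were not lower were Socs3, an inhibitor of cytokine signalling (8871 against 4705), Ccr9, a homing receptor for the small intestine (14853 against 10314), and Ly6c1 (17553 against 9513). By their brightest probe sets these were 0.53 to 0.91 log2 units higher, under 2-fold. The 3 probe sets of Ccr9 ran from 0.53 to 1.63 log2 units, so not all of them were under 2-fold.

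Homing receptors were split. Of 9 named migration receptors out of 28, 2 were higher by 2-fold or more and 5 lower by as much, with a median of -1.54 log2 units. Itga4, the integrin alpha 4 chain used to enter inflamed tissue and gut, read 912 in deficient and 4971 in wild-type cells, 5.45-fold lower. Itga6, the alpha 6 chain that binds laminin, read 242 against 1125 (4.65-fold lower). F2rl1, a receptor cleaved by proteases, read 266 against 1602 (6.03-fold lower). Gpr183, which guides cells by oxysterols, read 476 against 1385 (2.91-fold lower), and Cxcr6, a receptor of tissue-resident and effector cells, read 891 against 3416 (3.83-fold lower). On the other side stood Cxcr3, which guides effector cells to inflamed tissue, with 3823 against 1395 (2.74-fold higher), and Cxcr4 with 935 against 440 (2.13-fold higher).

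Of the reported FOXO targets, 8 of 32 had a name and 7 were compared: 2 were higher by 2-fold or more, 2 lower by as much, and the median was -0.33 log2 units. These shares were close to those of all 484 named genes compared, 139 higher and 153 lower. The 2 lower ones were Il7r and Sesn1, and the 2 higher ones were Tbx21 and Bcl6 (1298 against 606, 2.14-fold higher), a repressor of effector fate. Bcl2l11, the death inducer Bim, read 233 in deficient and 293 in wild-type cells, and Ddit4, an inhibitor of mTORC1, read 2555 against 4040. Neither reached 2-fold.

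The letters of the FOXO recognition site, GTAAACA, were searched on both strands of promoter windows from RefSeq (mouse build GRCm38.p6), each running from 250 bases before to 50 bases after a gene start. The letters occurred in 4.05% of all genes with a window, in 6 of 112 named genes at least 2-fold lower (5.36%), in 5 of 94 at least 2-fold higher (5.32%) and in 3 of 140 below 2-fold (2.14%). A match is only a run of letters and not a bound site. Windows of 3 lower genes and 2 higher genes are shown to place those letters, in capitals, in their surroundings. The Dapl1 window lies at chr2:59484403-59484702 on the plus strand, with the match 164 bases before the start.
Dapl1: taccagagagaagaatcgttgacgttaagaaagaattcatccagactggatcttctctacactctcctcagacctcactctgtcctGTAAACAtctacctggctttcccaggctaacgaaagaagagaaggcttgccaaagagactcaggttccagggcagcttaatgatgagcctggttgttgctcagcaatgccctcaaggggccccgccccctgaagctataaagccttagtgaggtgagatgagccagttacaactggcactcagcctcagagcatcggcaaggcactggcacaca
The Pim1 window lies at chr17:29492835-29493134 on the plus strand, with the match 70 bases before the start. Pim1, a survival kinase, read 525 in deficient and 1371 in wild-type cells.
Pim1: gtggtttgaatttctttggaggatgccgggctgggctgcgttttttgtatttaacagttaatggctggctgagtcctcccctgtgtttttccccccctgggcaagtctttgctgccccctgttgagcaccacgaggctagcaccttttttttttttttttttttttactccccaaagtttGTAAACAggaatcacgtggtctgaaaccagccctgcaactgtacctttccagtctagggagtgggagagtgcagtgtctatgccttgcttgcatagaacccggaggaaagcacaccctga
The Sesn1 window lies at chr10:41810324-41810623 on the plus strand, with the match 22 bases after the start on the opposite strand.
Sesn1: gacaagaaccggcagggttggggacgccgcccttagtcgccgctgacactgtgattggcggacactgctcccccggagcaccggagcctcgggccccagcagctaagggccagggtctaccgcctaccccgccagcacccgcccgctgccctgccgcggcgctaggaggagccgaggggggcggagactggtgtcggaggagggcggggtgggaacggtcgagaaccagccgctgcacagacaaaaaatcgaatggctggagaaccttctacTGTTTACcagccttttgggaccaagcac
The Abcb1a window lies at chr5:8566841-8567140 on the plus strand, with the match 20 bases before the start. Abcb1a, a drug efflux pump, read 1722 in deficient and 580.4 in wild-type cells.
Abcb1a: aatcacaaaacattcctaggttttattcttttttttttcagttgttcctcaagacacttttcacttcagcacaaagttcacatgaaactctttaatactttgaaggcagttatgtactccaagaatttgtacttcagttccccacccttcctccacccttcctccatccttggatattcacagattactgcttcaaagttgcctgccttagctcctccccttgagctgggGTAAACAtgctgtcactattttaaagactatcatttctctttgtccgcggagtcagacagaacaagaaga
The Gbp3 window lies at chr3:142559794-142560093 on the plus strand, with the match 239 bases before the start. Gbp3 is one of the interferon-induced GTPases.
Gbp3: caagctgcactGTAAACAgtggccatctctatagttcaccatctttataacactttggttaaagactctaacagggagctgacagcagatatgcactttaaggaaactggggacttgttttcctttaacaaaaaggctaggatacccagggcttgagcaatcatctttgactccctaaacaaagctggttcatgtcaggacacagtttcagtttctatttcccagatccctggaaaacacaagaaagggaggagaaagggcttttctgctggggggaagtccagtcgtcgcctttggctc

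Genes of cytotoxic cells were higher in deficient cells. Of 7 named members out of 19 on the list, 6 were at least 2-fold higher and none was lower by that much, with a median of 2.61 log2 units. Gzma, a granule protease, read 2428 in deficient and 113 in wild-type cells, 21.4-fold higher. Gzmb, the granzyme that starts death of target cells, read 1079.9 against 45.8, which lies below the floor, and was at least 14.4-fold higher. Ccl5, a chemokine of memory and effector CD8 cells, read 1075 against 176 (6.10-fold higher). Serpina3g, a protease inhibitor of activated T cells, read 487 against 47.7, at least 6.51-fold higher. The chemokine Xcl1 read 294 against 57.6, at least 3.92-fold higher, and Cst7, an inhibitor of cathepsins in granules, read 4224 against 1544 (2.74-fold higher). Nkg7, a granule membrane protein, did not follow them, with 9920 in deficient and 9924 in wild-type cells.

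Transcription factors of effector and memory cells were mostly higher. Of 15 named factors out of 31, 14 were compared: 8 were at least 2-fold higher, none was 2-fold lower, and the median was 1.10 log2 units. Tbx21, which encodes T-bet, read 1295 in deficient and 165 in wild-type cells, 7.83-fold higher. Eomes, the related T-box factor of memory cells, read 2183 against 1350, only 1.62-fold higher. Irf8, a factor of activated T cells, read 1986 against 315 (6.30-fold higher), and Ahr, the aryl hydrocarbon receptor, read 749 against 128 (5.83-fold higher). Ikzf2, the Ikaros family member Helios, read 3896 against 1068 (3.65-fold higher). Maf lay at 205 against 36.0, at least 2.74-fold higher. Id2, which supports effector survival, was the lowest of the list at 3580 against 6379, 1.78-fold lower.

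Surface receptors differed in both directions. Of 12 named activation and memory genes out of 32, 7 were higher by 2-fold or more and 3 lower by as much, with a median of 1.07 log2 units. Cd38, an ectoenzyme of activated cells, read 921 in deficient and 157 in wild-type cells (5.88-fold higher), and Ly6a read 14386 against 4070 (3.53-fold higher). Cd44, the classic marker of antigen-experienced cells, read 324 against 161, 2.02-fold higher, just past the threshold. The SLAM family was split, with Slamf7 at 413 against 123 (3.37-fold higher) and Slamf6 at 406 against 1625 (a log2 difference of -2.00). Sh2d1a, which encodes the adaptor SAP of these receptors, read 540 against 1145 (2.12-fold lower).

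Costimulatory receptors included a large difference in Cd28. Of 6 named members out of 21, 1 was higher by 2-fold or more and 2 lower by as much, with a median of 0.46 log2 units. Cd28, which gives the second signal for naive T cell activation, read 595 in deficient and 3740.0 in wild-type cells, 6.28-fold lower, and its 2 other probe sets gave 375 against 2072 and 69.9 against 458. Icos, a relative of Cd28, read 448 against 1106 (2.47-fold lower). Cd160, a receptor shared with natural killer cells, read 2862 against 591 (4.85-fold higher). The inhibitory receptor Pdcd1 read 151 against 80.6, 1.87-fold higher. Among the 5 named receptors of natural killer type, 4 of which were compared, Klra9 read 332.7 against 118 (2.81-fold higher), while Klrd1, the CD94 chain, read 2875 against 12752 (4.44-fold lower).

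**Figure D2:**
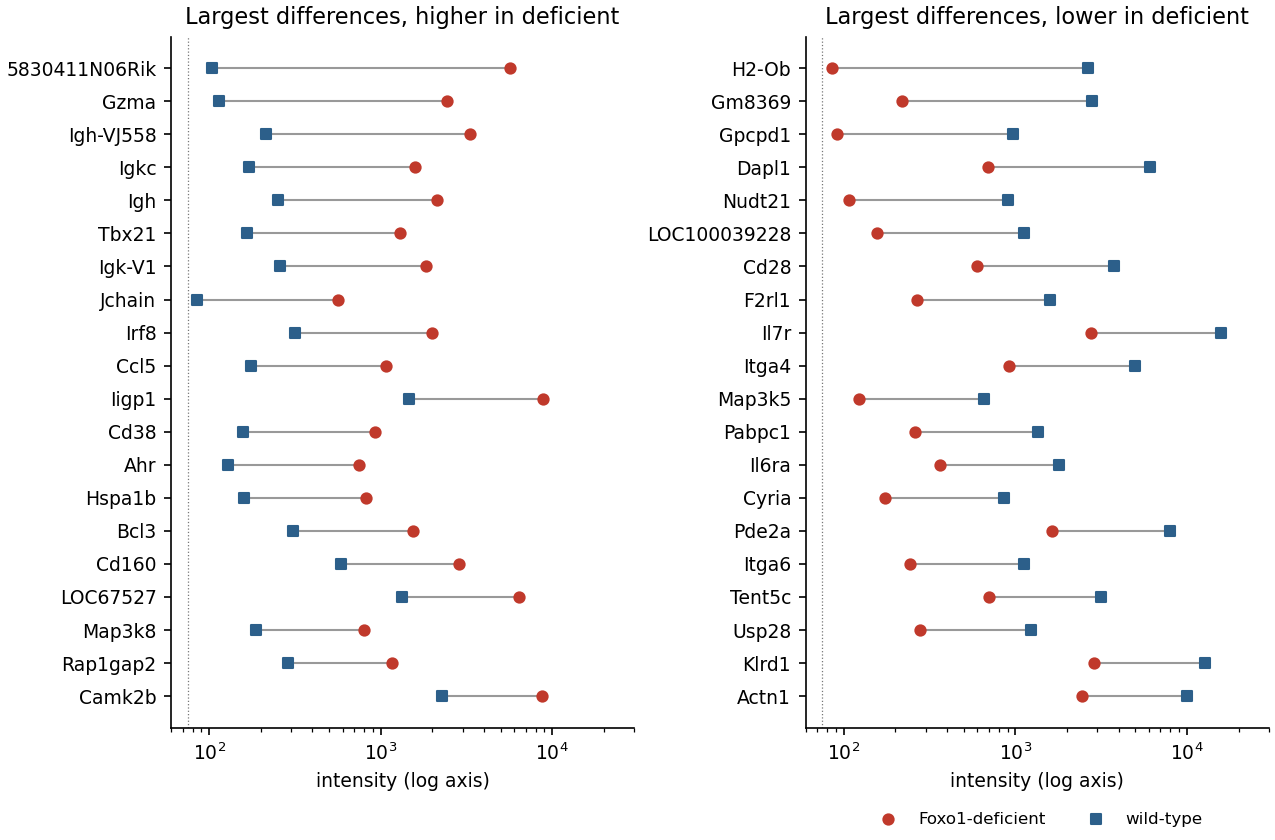
Intensity (log axis) in the Foxo1-deficient (circles) and wild-type (squares) CD8 arrays for the 20 named genes with the largest difference in each direction among those above the floor in both, with the floor as a dotted line. The largest is 5830411N06Rik on the higher side and H2-Ob on the lower side.

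Genes induced by interferon were higher together. Of 12 named members out of 42, 7 were at least 2-fold higher, none was lower, and the median was 1.13 log2 units. Iigp1, a GTPase that attacks vacuoles of intracellular parasites, read 8889 in deficient and 1458 in wild-type cells, 6.10-fold higher. Its relatives Irgm2 (9113 against 3449) and Irgm1 (5960 against 2817) were 2.64-fold and 2.12-fold higher. The guanylate-binding proteins Gbp6 (9220 against 3753) and Gbp3 (2663 against 1180) were 2.46-fold and 2.26-fold higher. Rsad2, the antiviral protein viperin, read 383 against 146 (2.63-fold higher).

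Signalling genes were split by family. Of 17 named inhibitors and phosphatases out of 39, 16 were compared: 5 were higher by 2-fold or more and 3 lower by as much, with a median of 0.90 log2 units. Map3k8, a kinase that activates ERK, read 797 in deficient and 187 in wild-type cells (4.26-fold higher). Rap1gap2, which switches off the adhesion GTPase Rap1, read 1162 against 287 (4.04-fold higher). Pde2a, a phosphodiesterase of cyclic nucleotides, read 1631 against 7961 (4.88-fold lower), and Gpcpd1, an enzyme of phosphocholine metabolism, read 91.3 against 970 (10.6-fold lower). The lipid phosphatase Inpp4b read 2611 against 5346 (2.05-fold lower). Outside this list, both heat shock genes with a name were higher, Hspa1b at 824 against 159 (5.17-fold) and Hspa8 at 423 against 193 (2.19-fold).

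All 6 named members of the cell cycle list were higher, by 0.47 to 1.14 log2 units, and the differences of Cdc6 and Melk are lower bounds. Of 6 named members out of 45, 3 were at least 2-fold higher, with a median of 0.90 log2 units. Nusap1 read 309 in deficient and 140 in wild-type cells, Ccna2 read 254 against 124, and Mki67, the proliferation marker Ki-67, read 726 against 424. Named genes of cell division outside the list went both ways, such as Cdc25b at 255 against 913 and Cep55 at 220 against 90.5. None of the 4 named apoptosis regulators reached 2-fold, with Pmaip1 the highest at 169 against 91.9.

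Some of the largest differences lay in genes not yet described. Tgm2, a transglutaminase that crosslinks proteins, read 3350 in deficient and 58.0 in wild-type cells, at least 44.7-fold higher, and its 3 other probe sets were 2.79 to 4.93 log2 units higher. Bcl3, a regulator of NF-kappaB, read 1545 against 306 (5.04-fold higher), Camk2b, a calcium-dependent kinase, read 8714 against 2269 (3.84-fold higher), and LOC67527 read 6363 against 1326 (4.80-fold higher). The cell adhesion gene Cdh1 read 396 against 58.4, at least 5.28-fold higher. In the other direction H2-Ob, the beta chain of an inhibitor of peptide loading on MHC class II, read 85.6 against 2661, 31.1-fold lower. Its deficient value lay close to the floor. The other named probe set of H2-Ob gave only a bound, at least 1.20 log2 units lower. The 2 other named MHC class II genes were higher, H2-DMa, which loads peptide, at 3121 against 1279 (2.44-fold) and H2-Aa at 1059 against 461 (2.30-fold). Among 15 named surface and adhesion genes of other kinds out of 30, 5 were 2-fold or more higher and 6 lower, with a median of -0.02 log2 units. The amino acid transporter Slc6a19 (53.7 against 1306) was at least 17.4-fold lower, and App, the amyloid precursor protein (71.0 against 1006), at least 13.4-fold lower. The other compared probe set of App was lower by 1.57 log2 units or more. Further genes in the lower 20 were Gm8369, Nudt21, LOC100039228, Map3k5, Pabpc1, Cyria, Tent5c and Usp28, which were 4.44-fold to 12.8-fold lower. The other probe set of Map3k5 gave only a bound, at least 0.48 log2 units lower.

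**Figure D3:**
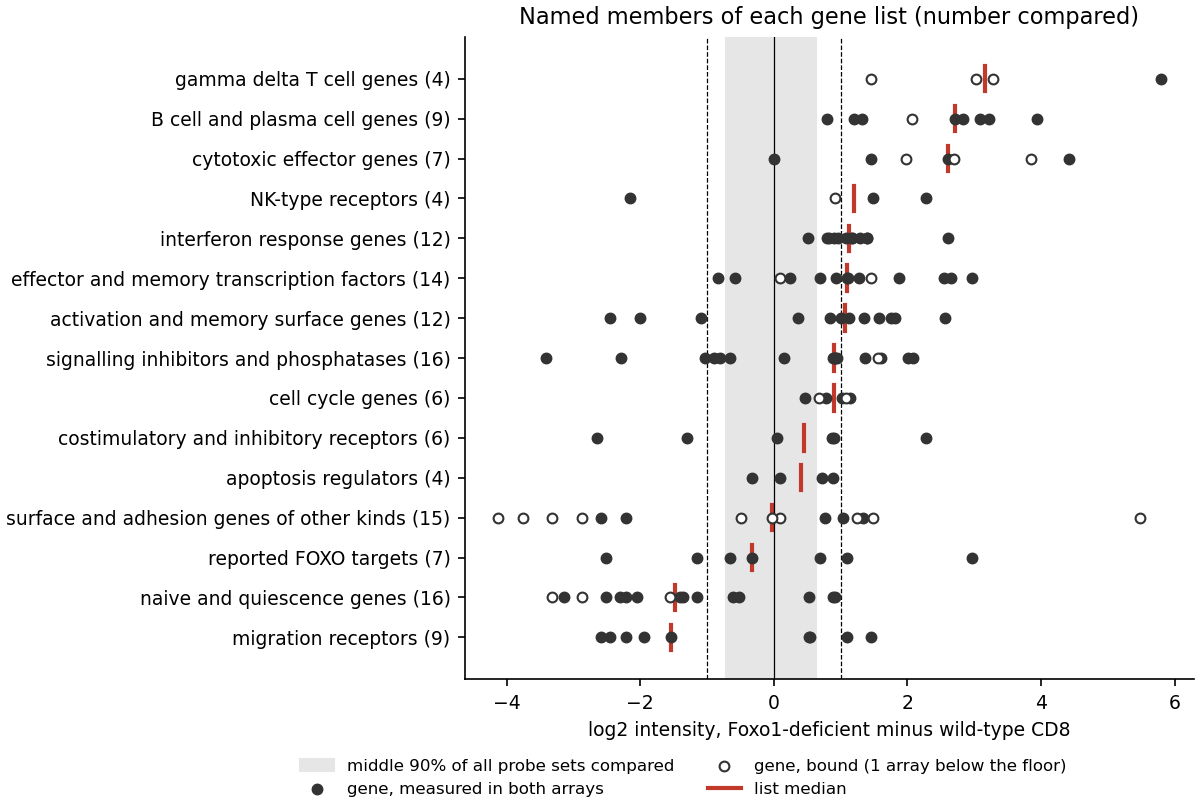
Difference of each named member of 15 gene lists on the log2 scale, Foxo1-deficient minus wild-type CD8, with filled circles measured in both arrays, open circles bounds, red bars the list medians and a grey band for the middle 90% of all compared probe sets. Gamma delta, B cell and cytotoxic lists have the highest medians, and the migration and naive lists have the lowest.

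Markers of other cells also differed. Of 9 named B cell and plasma cell genes out of 49, 8 were at least 2-fold higher, and the summed intensity of the 9 was 13589.8 in deficient and 3035 in wild-type cells. This sum and those that follow add the deposited intensities without the floor. Igh-VJ558 read 3318 against 215 (15.4-fold higher), Igkc 1595 against 171 (9.35-fold higher) and Jchain, the joining chain of secreted antibody, 560.5 against 85.1 (6.58-fold higher). All 4 named gamma delta T cell genes were at least 2-fold higher, with a sum of 7255 against 228. The first of them, 5830411N06Rik, read 5711 against 103 (55.3-fold higher), and Cd163l1 (610 against 56.5) and Trgv1, a variable segment of the gamma chain (728 against 31.9), were at least 8.15-fold and 9.71-fold higher. The 2 named myeloid genes summed to 365 against 136, and the 2 erythroid and platelet genes to 216 against 485. Foxp3, the defining factor of regulatory T cells, lay below the floor at 51.0 in deficient and 71.6 in wild-type cells; of the 2 other named genes of that list Nrp1 read 73.1 against 105, and Ikzf2 is given above. The part of such cells in the other differences was not tested. None of 15 lineage genes, Cd8a, Cd8b1 and Cd4 among them, has a name here, so the CD8 label could not be checked against its markers.

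The CD8 differences were set beside those of CD4 T cells, where 361 of 24070 compared probe sets (1.5%) were at least 2-fold higher in deficient cells and 303 (1.26%) were at least 2-fold lower. Of the 22498 probe sets that could be compared in CD4 and CD8 alike, 105 were higher in each, which is 31.9% of the CD8 list and 30.3% of the CD4 list. Another 104 were lower in each, 22.4% of the CD8 and 36.9% of the CD4 list. Opposite directions were seen in 23 that were lower in CD8 and higher in CD4, and in 1 the other way. No array is shared between these comparisons.

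The cytotoxic list had a median of 2.61 log2 units in CD8 and 1.44 in CD4, with 6 and 5 of its 7 members at least 2-fold higher. Several of its CD4 values are lower bounds, so the departure of the whole list cannot be sized. Gzmb differed by at least 3.85 in CD8 and at least 1.44 in CD4, and Serpina3g by at least 2.70 and at least 0.85. Xcl1 differed by at least 1.97 and at least 0.08, and Ccl5 by 2.61 and at least 1.98. Gzma differed by 4.42 log2 units in CD8 and 2.15 in CD4, while Cst7 differed by 1.45 and 1.63, and Nkg7 by -0.00 in CD8 and at least 1.38 in CD4. Of other genes, Tbx21 differed by 2.97 in CD8 and at least 0.55 in CD4, Cd38 by 2.56 and 0.62, and Eomes by 0.69 and 0.65. Cxcl10, an interferon-induced chemokine, differed by 1.81 in CD8, with 349 in deficient and 99.3 in wild-type cells, and by -0.22 in CD4. Genes more negative in CD8 included Il6ra (-2.31, against 0.22 in CD4), Gpcpd1 (-3.41 and -0.13) and Cd28 (-2.65 and -0.59). Among named genes above the floor in all 4 arrays Ddit4 departed most, with -0.66 in CD8 and 3.61 in CD4, where it read 6595 in deficient and 541 in wild-type cells. Nudt21 departed further but lay outside that set, since wild-type CD4 cells read 68.7, below the floor. It differed by -3.08 in CD8 and at least 3.02 in CD4. Other genes had like values in both, such as 5830411N06Rik (5.79 and 6.14), Il7r (-2.52 and -1.93) and Dapl1 (-3.14 and -2.73). With 1 array per group none of these departures was tested.

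**Figure D4:**
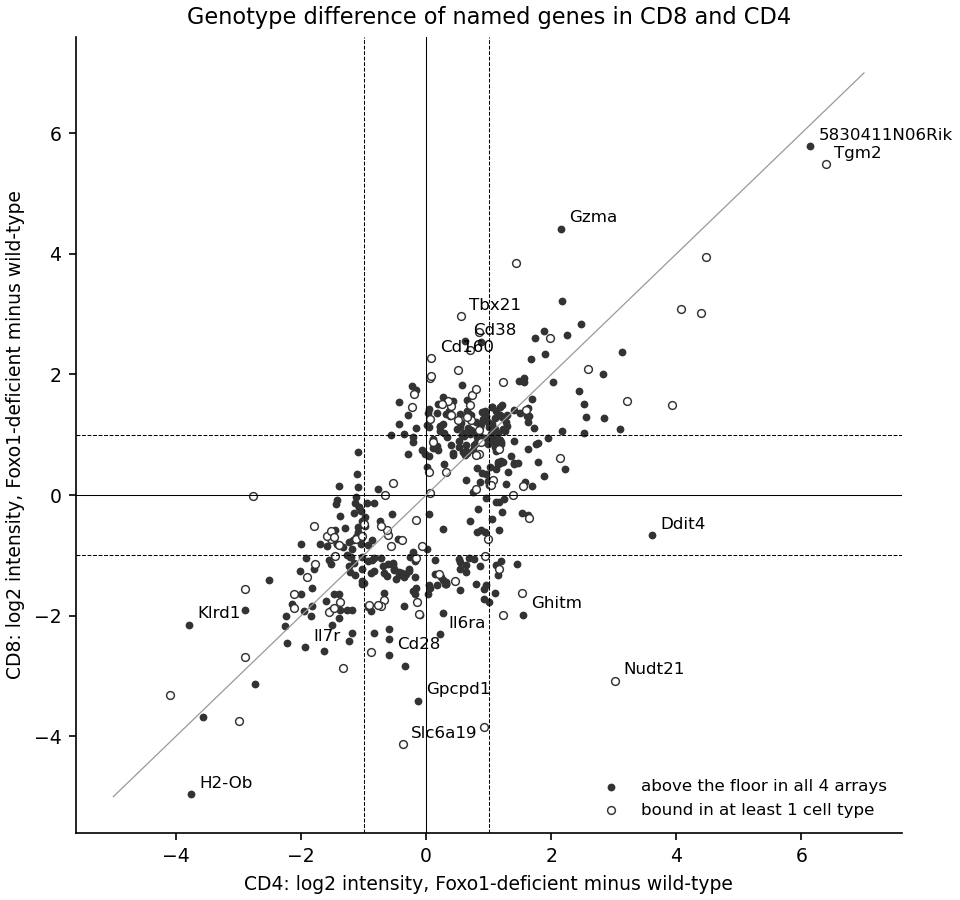
Genotype difference of named genes in CD8 (vertical) against CD4 (horizontal) on the log2 scale, with dashed lines at 2-fold and the line of equal values. Gzma and Cd38 lie above that line, and Ddit4, Nudt21, Gpcpd1 and Il6ra lie below it. Tbx21 is drawn above the line, but its CD4 difference is a lower bound, so its side of the line is not settled. The CD4 difference of Nudt21 is also a lower bound, and a larger value would leave Nudt21 below the line.

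Several genes were read by more than 1 named probe set. A probe set has a name only where the authors listed it as changed in the study's arrays, so the likeness between named probe sets of a gene is partly set by that choice and checks nothing independently. Of 76 genes with 2 or more probe sets measured in both arrays, 74 had the same sign on all of them. Glipr2, with -0.29 and 0.27, was among those that did not. For the 33 genes with 3 or more compared probe sets, all 33 lay on 1 side of 0. Sizes spread more: the 4 probe sets of Itga4 ran from -3.65 to -1.37 log2 units. Over all probe sets measured in both arrays, the share past 2-fold was 3.48% in the dimmest of 5 equal bins of mean intensity, and 4.65%, 3.24%, 1.99% and 1.70% in the next 4 bins towards the brightest.

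**Figure D5:**
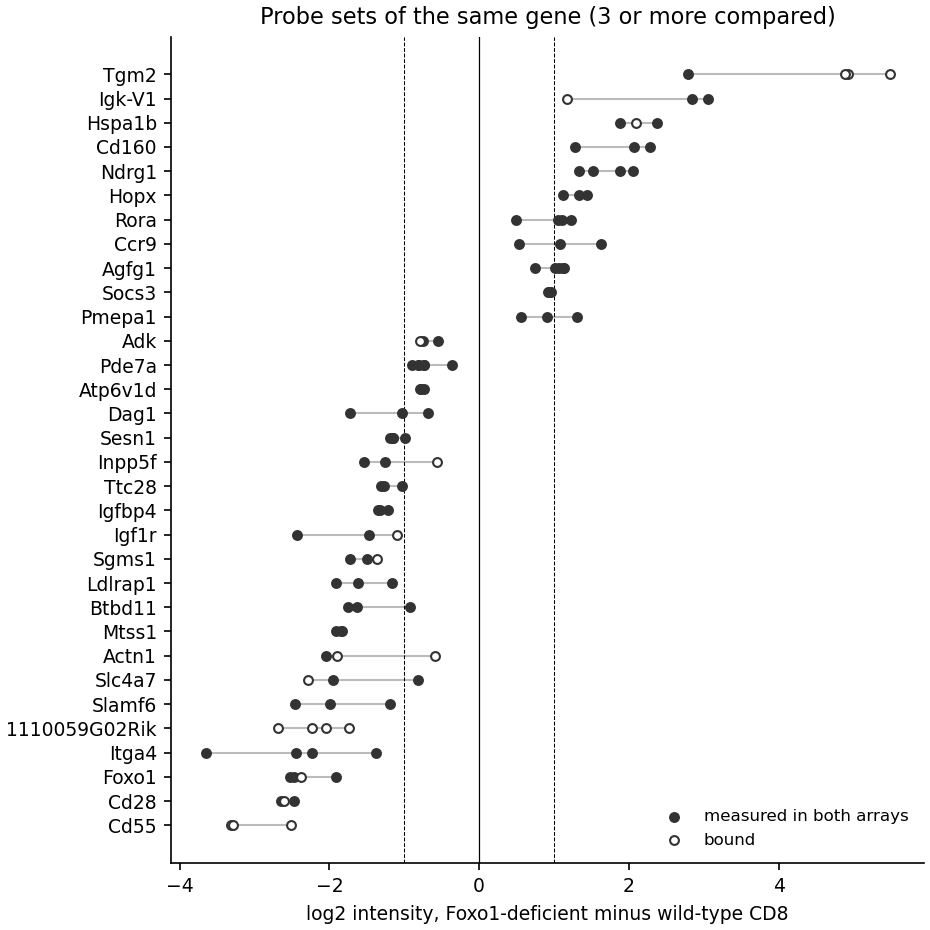
Difference of each probe set on the log2 scale, Foxo1-deficient minus wild-type CD8, for 32 of the 33 named genes with 3 or more compared probe sets, filled where measured in both arrays and open where a bound. The probe sets of each gene drawn lie on 1 side of 0, while their sizes spread, most widely for Tgm2 and Itga4.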

How the data were processed

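RNA of CD8 T cells, 1 array per genotype, was biotin-labelled and read on Affymetrix arrays, as the labels' protocols say. The authors deposited 1 linear intensity per probe set and array; its summarisation, background correction and scaling are not given in the sources used here. Symbols came from the authors' lists of changed probe sets, whose fold values were not used. Of 694 listed probe sets 660 had a usable symbol: 563 current in RefSeq, 56 updated through a synonym and 41 kept as given.

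From the deposited intensities, 64 controls were left out, values were floored at 74.9 and log2 differences were taken without further scaling, in Python 3.11.15 with pandas 2.3.3 and numpy 2.4.6. Each gene is its brightest named probe set. No test was made: with 1 array per group there is no spread between samples, and the number of arrays limits the precision. The counting was run on a copy of the wild-type CD8 array with known changes put in well above the floor. No noise was added and no change crossed the floor, so bounds were not covered. Between genotypes, 9 spike-in controls had a median difference of -0.01 log2 units in CD8, and the 5 prime minus 3 prime signal shifted by 0.04 for actin and 0.15 for Gapdh.

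The members and the 21 gene lists were chosen with earlier results of these data known. Genes were named by rule: Foxo1, the 20 largest measured differences and 10 largest bounds each way, the 10 departing most from CD4 each way, and up to 6 members per list, though not each of these is described; other genes named, such as Pim1, Abcb1a and Glipr2, were chosen after their values were seen. Alternatives were other floors, scalings, thresholds and choices of probe set. Some genes are not reported here.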

Additional observations from a re-analysis of the deposited data

Results flagged for a closer look

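Named genes above the floor in all 4 arrays that were at least 2-fold lower in Foxo1-deficient CD8 T cells and at least 2-fold higher in Foxo1-deficient CD4 T cells are given here because the single arrays of the cell types moved in opposite directions. The difference between the cell types was not tested, since each group has 1 array. Ghitm, a mitochondrial inner membrane protein, differed by -1.98 log2 units in CD8 and 1.54 in CD4. Rlf, a zinc finger gene, differed by -1.62 and 1.10. Sh3kbp1, an adaptor in receptor endocytosis, differed by -1.32 and 1.15. Trpm7, an ion channel with a kinase domain, differed by -1.15 and 1.12. R3hdm1 differed by -1.13 and 1.46, and E2f5, an E2F family member, by -1.10 and 1.19.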

How the results depend on the processing

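No paired analysis was possible because each group has 1 array. The count of probe sets at least 2-fold higher, 351, moved to 1630 with the 25th percentile (17.7) as the floor, 92 with the 75th (471), 561 with centred arrays, 4072 with no floor, 1427 at 1.5-fold and 73 at 3-fold. The count lower, 485, moved to 3043, 125, 6851 with no floor, 1827 at 1.5-fold and 127 at 3-fold. The changes with floor and threshold follow from their construction; for the others the cause was not tested. Without probe sets shared between transcripts, Foxo1 was -2.47, the naive list's median -2.04, the gamma delta median 2.02, and the MHC class II median reversed to -1.84, since H2-Aa drops out and 2 of its 3 named genes are left, H2-DMa higher and H2-Ob lower. With the 75th percentile floor the medians were 1.20 (cytotoxic), 0.68 (activation), -0.18 (costimulatory), 0.064 (NK-type), 0.35 (cell cycle), 0.21 (signalling), 0.81 (heat shock), 1.76 (B cell), 0.63 (gamma delta), 1.87 (regulatory T cell) and -0.44 (other surface genes). With the 25th percentile floor and with no floor they were 3.97 for gamma delta and -0.49 for regulatory T cell genes. For 163 named genes, 939 of 1053 alternative values moved by less than the spread between probe sets, and 114 moved further with the same sign. Reversal was counted only for genes whose reported difference was at least 2-fold, and none of these reversed. A smaller difference that changed sign within that spread was not counted.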
